A study of Mus musculus with 9 samples.

Results

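Plasma cells leave the organ in which they form, travel in blood and settle in niches, and the genes that govern this movement were followed here in spleen plasma cells of mice with and without a light chain deposition disease (LCDD) light chain. The 9 genes were Cxcr4, Cxcr3, Ccr9, Ccr10, S1pr1, Klf2, Itga4, Itgb1 and Itgb7. They were chosen by name as the homing receptors, the egress receptor with its transcription factor, and the integrin chains of plasma cells. Earlier results of these data were known when these genes were chosen. They are 9 of the 46958 genes in the count table, and all 9 passed the filter on low counts that left 14199 genes to test. RNA was sequenced from CD138-bead-isolated spleen plasma cells of non-immunized mice aged 3 months, on a mixed C57/BL6x129/SVxBALB/c background, with all such cells of 1 spleen making 1 library. The 3 genotypes were WT, DH-LMP2A and kFRA, with 3 libraries each. The kFRA label carries LCDD in brackets, and the series concerns the toxicity of a monoclonal free light chain of that disease to the plasma cells that make it. LMP2A is a membrane protein of Epstein-Barr virus that signals in B cells in place of an antigen receptor. The labels give the genotypes by name alone, so the alleles, and any allele that kFRA and DH-LMP2A mice share, are not given in the sources used here. Bead enrichment leaves some other spleen cells in a sample.

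CXCR4 is the receptor for CXCL12, which is made by bone marrow stroma and red pulp and holds plasma cells in those sites. CXCR3 follows interferon-induced chemokines into inflamed tissue, CCR9 follows CCL25 into the small intestine, and CCR10 follows CCL27 and CCL28 to skin and mucosa. S1PR1 senses sphingosine-1-phosphate, which is high in blood and lymph, and draws lymphocytes out of tissue. The transcription factor KLF2 is known to raise S1pr1, and in B lineage cells its loss lowers beta 7 integrin. The alpha 4 chain encoded by Itga4 pairs with the beta 1 chain to bind VCAM1 and fibronectin in bone marrow, or with the beta 7 chain to bind MAdCAM-1 in gut vessels.

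The promoters of 7 of the 9 genes were matched in RefSeq (GRCm38.p6), as windows from 250 bases before to 50 after the start site. Stretches upstream of the annotated exons are shown for Itgb7 and Cxcr3, which fell in both mutant genotypes against WT, and for Itga4 and Cxcr4, which passed no test. Each reads 5′ to 3′ along the gene's own strand, and capitals mark CACCC or its reverse complement GGGTG, the core that KLF and SP family factors recognise.

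Itgb7 (chr15:102231945-102232185, minus strand): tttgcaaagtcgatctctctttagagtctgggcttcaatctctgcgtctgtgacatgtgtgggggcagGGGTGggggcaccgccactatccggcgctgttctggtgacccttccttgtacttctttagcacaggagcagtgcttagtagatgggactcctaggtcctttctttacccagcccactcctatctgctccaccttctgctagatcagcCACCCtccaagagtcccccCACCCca

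Cxcr3 (chrX:101734270-101734397, minus strand): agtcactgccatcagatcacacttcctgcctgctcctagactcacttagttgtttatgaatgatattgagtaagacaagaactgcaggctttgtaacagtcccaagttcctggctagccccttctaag

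Itga4 (chr2:79255176-79255425, plus strand): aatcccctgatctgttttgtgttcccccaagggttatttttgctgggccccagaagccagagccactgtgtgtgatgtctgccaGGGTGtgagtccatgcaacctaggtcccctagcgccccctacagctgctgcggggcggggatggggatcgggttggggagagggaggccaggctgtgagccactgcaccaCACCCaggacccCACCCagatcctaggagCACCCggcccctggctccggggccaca

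Cxcr4 (chr1:128592300-128592549, minus strand): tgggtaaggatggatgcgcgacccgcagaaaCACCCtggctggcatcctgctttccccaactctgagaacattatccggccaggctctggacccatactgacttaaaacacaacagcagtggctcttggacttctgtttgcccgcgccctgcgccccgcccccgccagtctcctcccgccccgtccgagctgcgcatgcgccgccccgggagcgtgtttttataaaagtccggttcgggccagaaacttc

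The whole 300-base windows held 4 matches to CACCC for Itgb7, 4 for Itga4, 2 for Itgb1, 1 each for Cxcr4, Ccr9 and Klf2, and 0 for Cxcr3. 1 match of Itgb7 and the match of Klf2 lay outside the stretches clear of exons. The same letters occurred on either strand in 18895 of 32851 mouse promoter windows of that length, or 57.5%. The T-box core TCACACC, or GGTGTGA on the other strand, was found in 3.98% of windows and among these genes only in that of Itga4, where it overlapped a CACCC match. T-box factors include T-bet, a known activator of Cxcr3. A match in a window shows only that the letters are there, and whether any of these matches bears on expression was not tested.

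The 9 libraries held 15449026 to 21558128 counts, so that 3 counts, taken as the floor of detection, corresponded to 0.127 to 0.205 CPM (counts per 1e6 of the library, with TMM scale factors). Summed markers of plasma cells stood at 19253 to 47671 CPM in the 9 libraries. The sums reached at most 657 CPM for B cell, 121 for T cell, 857 for granulocyte, 4648 for myeloid and 12125 for erythroid markers. Jchain made up most of the plasma cell sum, with a mean of 21102 CPM for kFRA, 17810 for WT and 30940 for DH-LMP2A. Among WT means, the myeloid genes Csf1r (1115 CPM) and C1qb (651) exceeded Sdc1 (411), Prdm1 (184) and Irf4 (596), while Xbp1 was at 1713. The sums thus do not measure purity. No marker gene of any cell type list was at 0 in all libraries of a genotype. Differences were tested with edgeR's quasi-likelihood F test on the counts, in 1 fit over the 9 libraries, with Benjamini-Hochberg adjustment over all 14199 genes. A gene was called at an adjusted p under 0.05. In bulk samples such as these, fewer cells of a type and less RNA per cell cannot be told apart.

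In kFRA plasma cells 5 of the 9 homing genes fell against WT: Cxcr3, Ccr9, Itgb7, Itgb1 and S1pr1. In the same comparison 17.8% of all genes tested passed, 11.1% as lower and 6.68% as higher. Against WT, DH-LMP2A cells were lower in 3 of the 9, Cxcr3, Itgb7 and Ccr10, beside 12.4% of all genes (7.3% lower, 5.07% higher). Between kFRA and DH-LMP2A only S1pr1 passed, lower in kFRA, beside 5.02% of all genes (3.3% lower, 1.73% higher). None of the 9 was called higher in any comparison. At an unadjusted p under 0.05, 1 was higher, S1pr1 in DH-LMP2A against WT. DESeq2's Wald test called 0 of them higher. Set against WT, the median over the 9 genes was -1.50 (log2 fold change) in kFRA and -1.06 in DH-LMP2A, where all tested genes had medians of -0.038 and -0.0081. From DH-LMP2A to kFRA the median of the 9 was -0.37 and that of all genes -0.0049. The 2 comparisons against WT share the WT libraries. Because the 9 genes were chosen with earlier results of these data known, their counts and medians are not an unbiased contrast with all genes.

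These counts depended on single libraries. In kFRA against WT, 3 genes (Cxcr3, Ccr9 and Itgb7) were called without kFRA replicate 1 or without WT replicate 2. In DH-LMP2A against WT, 1 gene (Cxcr3) was called without DH-LMP2A replicate 1 or 2 or WT replicate 2 or 3. For kFRA against DH-LMP2A the count was 0 without kFRA replicate 1 and 3 (S1pr1, Itgb1 and Ccr9) without kFRA replicate 2, which stood at -4.87 on the second principal component of the libraries against -42.7 and -44.3 for the other kFRA libraries. All genes called went from 713 to 3299 without it. That library had 733 CPM of Xist, the RNA of the inactive X chromosome, where the other kFRA libraries had 1.30 and 3.13 CPM. Xist also differed within the other genotypes, at 923, 881 and 4.48 CPM in DH-LMP2A and 782, 0.459 and 494 CPM in WT. With Xist as a covariate, the 9 genes called were 6 for kFRA against WT (Klf2 was added), and the same genes as before in the other comparisons. Scaling by library size alone shifted the median of all genes to 0.17 for kFRA against WT and 0.33 for DH-LMP2A against WT, and the share of all called genes that were higher from 37.6% to 72.0% and from 41.0% to 79.9%.

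**Figure D1:**
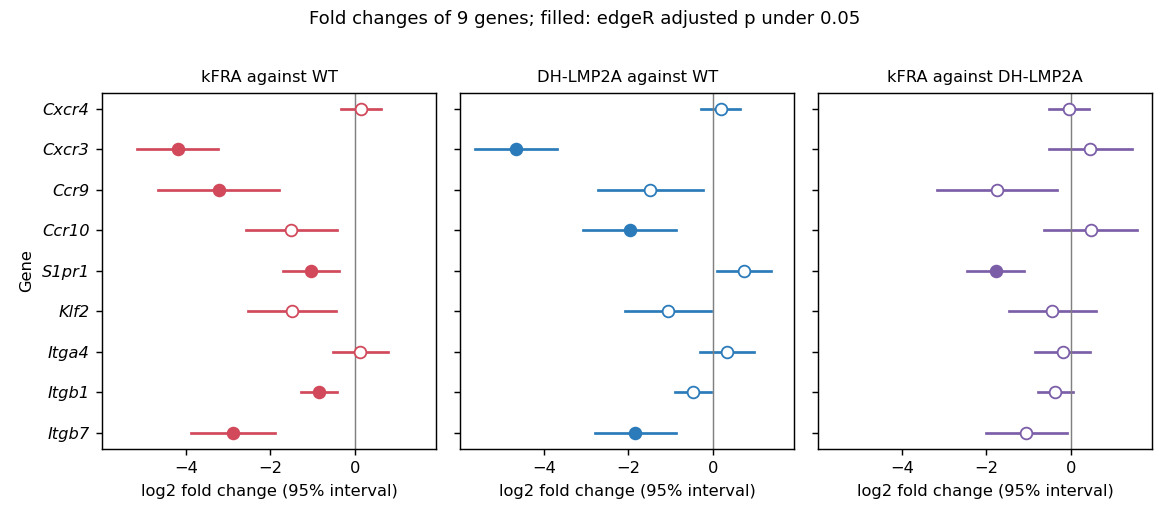
Log2 fold changes of the 9 genes (x axis) in the 3 comparisons between genotypes, each gene on its own line. Points are edgeR estimates with their 95% intervals, filled where the adjusted p was under 0.05; Cxcr3 lies farthest to the left in both comparisons against WT, at -4.20 and -4.65, and S1pr1 is the only filled point between kFRA and DH-LMP2A.

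Cxcr4 was the most abundant of the 9 genes per length and passed no test. The gene (GRCm38 chr1:128588199-128592293, minus strand, 2 exons) stood at 133, 148 and 233 CPM in the WT libraries, in the order of the replicate numbers. DH-LMP2A libraries held 193, 182 and 208 CPM, and kFRA libraries 216, 178 and 175 CPM. The 3 genotypes overlapped, and the widest spread was within WT. The log2 fold change was 0.14 (SE 0.209, 95% interval -0.33 to 0.61, edgeR adjusted p = 0.645) for kFRA against WT and 0.18 (interval -0.29 to 0.65, adjusted p = 0.659) for DH-LMP2A against WT. Between kFRA and DH-LMP2A it was -0.04 (interval -0.51 to 0.43). Over the 3 comparisons the intervals thus reached from -0.51 to 0.65, and a change of that size could not be resolved. Its sign changed under some of the other settings in all 3 comparisons, never past the test.

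Cxcr3 showed the opposite picture, with a near loss of its RNA in both mutant genotypes. Cxcr3 (GRCm38 chrX:101731535-101734269, minus strand, 2 exons) had 29.0, 22.6 and 37.2 CPM in WT. It had 0.634, 1.16 and 1.74 CPM in DH-LMP2A and 0.752, 2.00 and 2.01 CPM in kFRA. All 6 mutant libraries were thus far below the lowest WT library, and at 11 to 42 counts they were above the floor. Cxcr3 was 18.4-fold lower in kFRA (log2 fold change -4.20, SE 0.424, adjusted p = 0.000185) and 25.1-fold lower in DH-LMP2A (-4.65, SE 0.432, adjusted p = 0.000161) than in WT. Between the mutant genotypes it differed by 0.45 on the log2 scale (interval -0.53 to 1.44, adjusted p = 0.563). Both falls were called when any 1 library was left out and under all other settings tried.

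The gut-homing receptor Ccr9 was the scarcest of the 9 genes per length in each genotype and fell in kFRA against WT. Ccr9 (GRCm38 chr9:123678439-123783457, plus strand, 5 exons) was counted at 2.63, 8.0 and 4.01 CPM in WT, or 52, 157 and 63 counts. In DH-LMP2A it stood at 1.40, 1.11 and 2.74 CPM, and in kFRA at 0.273, 0.951 and 0.251 CPM, which were 4, 20 and 4 counts. The kFRA libraries lay below all 6 others, and DH-LMP2A replicate 3 overlapped the lowest WT library. kFRA was 9.37-fold lower than WT (log2 fold change -3.23, SE 0.634, adjusted p = 0.0088), a fold that rests on counts near the floor in kFRA. The differences of DH-LMP2A from WT (-1.48, SE 0.557, adjusted p = 0.123) and of kFRA from DH-LMP2A (-1.75, SE 0.636, adjusted p = 0.155) were not called. Without kFRA replicate 2, the highest of its group, the last became -2.65 with an adjusted p of 0.0341. Up to 6.89% of the Ccr9 exon bases are shared with another annotated gene (Slc6a20a and AC165425.1 on the opposite strand and Gm17200 on the same strand overlap it), and the strand setting of the counting is not given in the sources used here.

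Ccr10, the receptor for skin and mucosal chemokines that IgA plasma cells carry, was lower in DH-LMP2A. Ccr10 (GRCm38 chr11:101172997-101175443, minus strand, 2 exons) was measured at 5.01, 15.6 and 12.4 CPM in WT. The values were 2.49, 2.27 and 3.66 CPM in DH-LMP2A and 1.71, 5.51 and 4.33 CPM in kFRA. DH-LMP2A lay below all WT libraries, while kFRA replicate 2 was above WT replicate 1. DH-LMP2A was 3.91-fold lower than WT (log2 fold change -1.97, SE 0.491, adjusted p = 0.0297), a call that ended when DH-LMP2A replicate 1 or 2, or WT replicate 2 or 3, was left out (adjusted p from 0.0136 to 0.112 over the 6 omissions). The difference of kFRA from WT was -1.50 (SE 0.484, adjusted p = 0.0601), and that from DH-LMP2A 0.47 (interval -0.64 to 1.57). kFRA against WT passed without kFRA replicate 2 or without WT replicate 1, at -1.79 and -1.85.

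**Figure D2:**
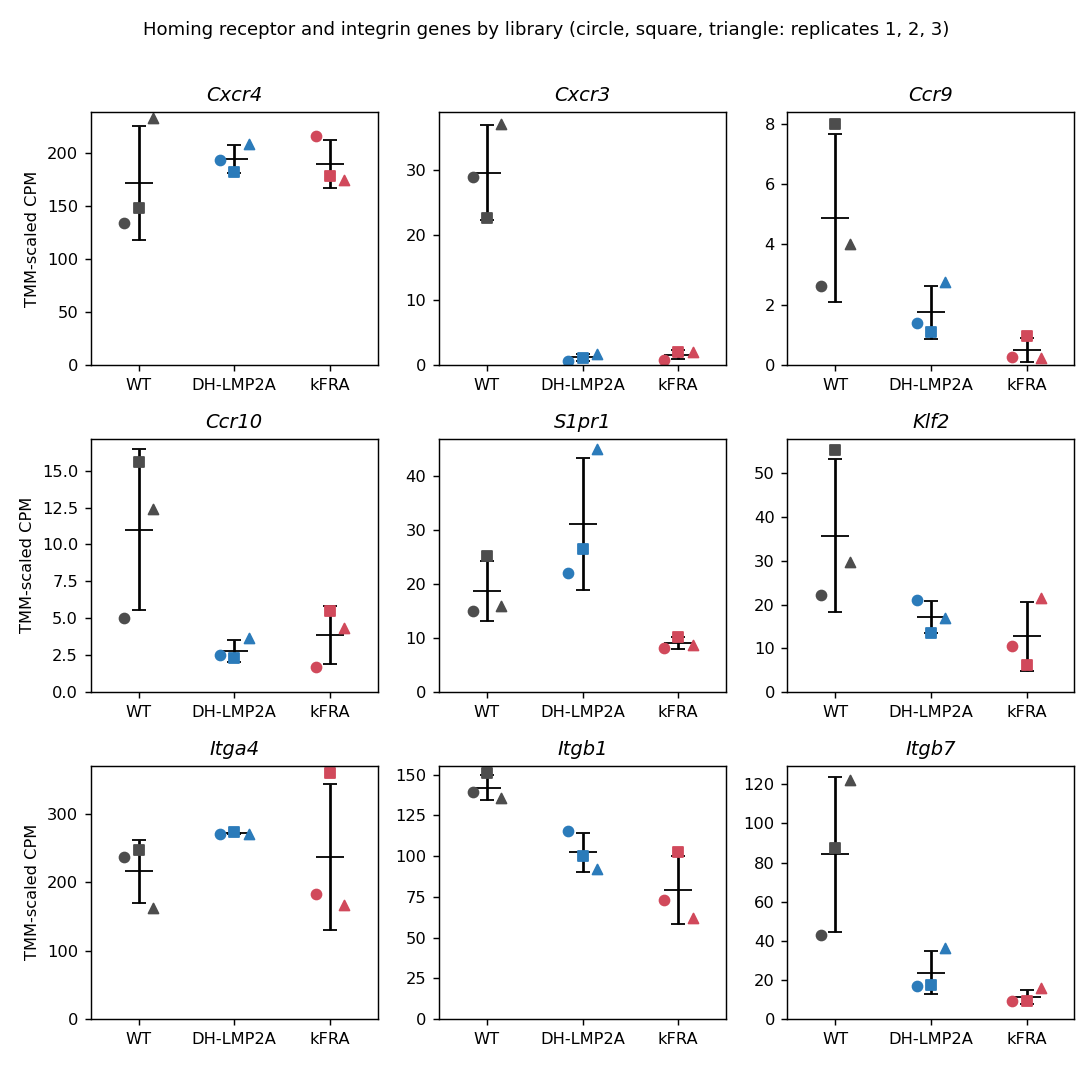
TMM-scaled CPM (y axis, linear and from 0) of each of the 9 genes in each library, by genotype (x axis). Circles, squares and triangles are replicates 1, 2 and 3, and bars are the mean and SD of 3 libraries; all mutant libraries of Cxcr3 lie at or under 2.01 CPM against at least 22.6 CPM in WT, while Cxcr4 overlaps between the genotypes.

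S1pr1 was the only one of the 9 genes called between kFRA and DH-LMP2A. S1pr1 (GRCm38 chr3:115710433-115715072, minus strand, 2 exons) stood at 8.07, 10.2 and 8.78 CPM in kFRA, the tightest of the 3 genotypes. DH-LMP2A libraries had 22.0, 26.5 and 45.04 CPM, and WT libraries 15.03, 25.2 and 15.9 CPM. Every kFRA library was below every other library, and DH-LMP2A and WT overlapped. S1pr1 was 3.45-fold lower in kFRA than in DH-LMP2A (log2 fold change -1.79, SE 0.298, adjusted p = 0.00831) and 2.07-fold lower than in WT (-1.05, SE 0.295, adjusted p = 0.038). The difference of DH-LMP2A from WT, 0.74 (SE 0.287, interval 0.09 to 1.38), had an adjusted p of 0.136. It ran from -0.086 to 1.05 over the 10 other settings, with its sign changed under 1 of them. Leaving out kFRA replicate 1 moved the adjusted p of kFRA against DH-LMP2A to 0.0505 with the log2 fold change at -1.71. The call of kFRA against WT was weaker: it was lost without kFRA replicate 1 or 3 or WT replicate 2 or 3 (adjusted p up to 0.139), and with scaling by library size alone (-0.83, adjusted p = 0.0982).

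Klf2 was highest in WT, with no difference past the test. Klf2 (GRCm38 chr8:72319033-72321656, plus strand, 3 exons) was found at 22.1, 55.4 and 29.7 CPM in WT. DH-LMP2A had 21.0, 13.6 and 16.9 CPM and kFRA 10.5, 6.13 and 21.4 CPM. All 6 mutant libraries were below the lowest WT library, the nearest by less than 1 CPM. The log2 fold change was -1.50 for kFRA against WT (SE 0.462, adjusted p = 0.0523) and -1.06 for DH-LMP2A against WT (SE 0.453, adjusted p = 0.172). Without WT replicate 1 or without kFRA replicate 3, kFRA against WT passed, at -1.75 and -2.11. Mean S1pr1 was highest in DH-LMP2A (31.2 ± 12.2 CPM, SD, n = 3, against 18.7 ± 5.62 in WT), and mean Klf2 in WT (35.7 ± 17.4 CPM against 17.2 ± 3.72 in DH-LMP2A). Neither difference between DH-LMP2A and WT was called (edgeR adjusted p = 0.136 for S1pr1 and 0.172 for Klf2). A link between the 2 genes was not tested.

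Among the integrin chains, the shared alpha chain passed no test while both beta chains fell in kFRA against WT. Itga4 (GRCm38 chr2:79255426-79333123, plus strand, 27 exons) was read at 237, 248 and 163 CPM in WT, 270, 273 and 271 CPM in DH-LMP2A, and 183, 359 and 167 CPM in kFRA. The DH-LMP2A libraries were nearly equal and all above WT, and kFRA replicate 2 was the highest of the 9. The log2 fold change was 0.33 for DH-LMP2A (interval -0.31 to 0.98, adjusted p = 0.534) and 0.13 for kFRA (interval -0.51 to 0.78, adjusted p = 0.762) against WT. Without kFRA replicate 2 the latter was -0.23, so its direction rested on that library. Exons of Cerkl on the opposite strand cover 8.04% of the Itga4 exon bases.

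Itgb1, the beta chain of the bone marrow and fibronectin receptors, fell modestly. Itgb1 (GRCm38 chr8:128685654-128733200, plus strand, 17 exons) stood at 140, 151 and 136 CPM in WT. Values were 115, 99.8 and 92.0 CPM in DH-LMP2A and 72.9, 103 and 61.8 CPM in kFRA. WT lay above all mutant libraries, and kFRA replicate 2 overlapped DH-LMP2A. The fall in kFRA against WT was 1.80-fold (log2 fold change -0.84, SE 0.188, adjusted p = 0.0154), and in DH-LMP2A the difference was -0.47 (SE 0.186, adjusted p = 0.14). The kFRA call ended without kFRA replicate 1 or WT replicate 2 (adjusted p up to 0.0692), with library size alone (-0.60) and with a covariate for other cell types' markers (-0.85). Without kFRA replicate 2, kFRA was lower than DH-LMP2A as well (-0.54, adjusted p = 0.0293).

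Itgb7, the gut-homing beta chain, fell much further. Itgb7 (GRCm38 chr15:102215995-102231935, minus strand, 16 exons) was counted at 43.0, 87.4 and 122 CPM in WT, 17.0, 17.4 and 36.3 CPM in DH-LMP2A, and 9.23, 9.32 and 15.6 CPM in kFRA. The 3 genotypes did not overlap, with WT highest and kFRA lowest. Itgb7 was 7.39-fold lower in kFRA than in WT (log2 fold change -2.89, SE 0.447, adjusted p = 0.0028) and 3.56-fold lower in DH-LMP2A (-1.83, SE 0.426, adjusted p = 0.0223). The step from DH-LMP2A to kFRA, -1.05 (SE 0.427), had an adjusted p of 0.19. The kFRA call held in all 6 omissions of a library and under all 10 other settings, while that of DH-LMP2A was lost in 4 of the 6 omissions of a library (without DH-LMP2A replicate 1 or 2, or WT replicate 2 or 3, adjusted p up to 0.0898).

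The balance of the beta chains was read within each library as the log2 ratio of Itgb7 to Itgb1, each as counts per kb with 0.5 counts added. It was -1.13, -0.21 and 0.42 in WT, -2.19, -1.94 and -0.77 in DH-LMP2A, and -2.40, -2.89 and -1.41 in kFRA. Itgb7 was thus the more abundant beta chain in WT replicate 3 alone, and the scarcer one in the other 8 libraries. The mean was -0.31 ± 0.78 (SD, n = 3) in WT against -1.63 ± 0.76 in DH-LMP2A and -2.23 ± 0.75 in kFRA. kFRA differed from WT by -1.93 without overlap (exact 2-sided permutation test, p = 0.1, the smallest that 3 against 3 libraries allow). DH-LMP2A differed from WT by -1.33 with overlap (exact permutation p = 0.2) and kFRA from DH-LMP2A by -0.60 (exact permutation p = 0.4). No such test of 3 against 3 can reach 0.05, so these p-values are not adjusted further over the 3 ratios compared.

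**Figure D3:**
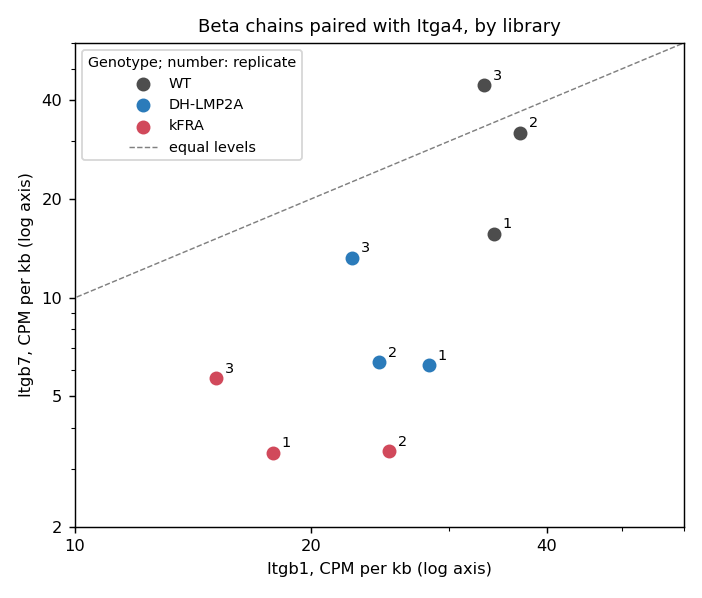
Itgb7 (y axis) against Itgb1 (x axis), both in CPM per kb on log axes, 1 point per library with its replicate number. The dashed line marks equal levels; WT replicate 3 is the only point above it, and WT replicate 1 lies farther below it than DH-LMP2A replicate 3.

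Taking overlap between libraries as the measure, 6 of the 9 genes separated kFRA from WT (Cxcr3, Ccr9, S1pr1, Klf2, Itgb1 and Itgb7), where 34.3% of all tested genes did. DH-LMP2A and WT were separated by 6 as well (Cxcr3, Ccr10, Klf2, Itgb1, Itgb7 and, as higher, Itga4), beside 36.7% of all tested genes. Between kFRA and DH-LMP2A the libraries of 3 did not overlap (S1pr1, Itgb7 and Ccr9), beside 25.5% of all genes, so this last share was near that of genes at large.

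Levels per length gave the order of the 9 genes within each genotype, as mean CPM per kb of exon. In WT, Cxcr4 led at 94.8 ± 29.6 (SD, n = 3), clear of Itgb1 at 34.8 ± 1.94. Itgb1, Itgb7 (30.7), Klf2 (19.3), Cxcr3 (17.1) and Itga4 (15.4) each overlapped the next, followed by Ccr10 (6.38) and S1pr1 (6.14), which overlapped each other, and by Ccr9 at 1.04. Cxcr3 in WT was thus of the rank of the integrin chains. In DH-LMP2A the order was Cxcr4 (107), Itgb1 (25.1) and Itga4 (19.4), each apart from the next, then S1pr1 (10.2), Klf2 (9.29) and Itgb7 (8.61), which overlapped, then Ccr10 (1.63), and last Cxcr3 (0.680) with Ccr9 (0.371). kFRA ran from Cxcr4 (105) to Itgb1 (19.4) and Itga4 (16.9), which overlapped, then Klf2 (6.87) and Itgb7 (4.15), then S1pr1 (2.96), Ccr10 (2.23) and Cxcr3 (0.915), each overlapping the next, and Ccr9 at 0.104. Cxcr4 was first and Ccr9 last in every genotype, Cxcr3 moved from the fifth place to the eighth, and S1pr1 held its highest place in DH-LMP2A.

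For the 6 genes called at least once, the 3 tested genes nearest in pattern were found by the root mean square difference of centred log2 CPM over the 9 libraries, among genes of at least 5 CPM outside the immunoglobulins. Cxcr3 was nearest to Gas7 (0.599), Osbpl3 (0.617) and Sorcs2 (0.693), where the median over all genes was 2.17. Osbpl3 averaged 25.9 CPM in WT against 0.918 in DH-LMP2A and 0.801 in kFRA. Itgb7 was near to Ahnak (0.318), which encodes a giant scaffold protein, and Cd2 (0.393), an adhesion receptor of lymphocytes, against a median of 1.29. S1pr1 was nearest to Arhgap26 (0.318), Mex3c (0.323) and Tmem64 (0.329), against 0.826. Itgb1 lay closest of all to its neighbours, Tnfaip8 (0.0967), Zbtb39 (0.105) and Rap1b (0.112), against 0.489; Rap1b is a small GTPase that activates integrins. Ccr9 was nearest to Cnr2 (0.421), the cannabinoid receptor of B cells, Lrrk2 (0.479) and Sbk1 (0.486), against 1.44. Ccr10 was nearest to Nfil3 (0.444), Gm5535 (0.486) and Faxc (0.494), against 1.03. The exons of Arhgap26, Tnfaip8, Zbtb39 and Gas7 overlap those of other annotated genes.

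The wider set of chemokine receptors held more falls than rises in kFRA against WT, as did all tested genes, and 1 riser that binds the ligand of CXCR4. Of 15 others tested, 5 fell and 1 rose in kFRA against WT, and 1 fell and 1 rose in DH-LMP2A against WT. Over all tested genes, 11.1% were lower and 6.68% higher in kFRA against WT, and 7.3% and 5.07% in DH-LMP2A against WT. Between kFRA and DH-LMP2A the shares were 3.3% and 1.73%. The counts of this and the later lists stand beside these shares. None passed between kFRA and DH-LMP2A, where 5 had an unadjusted edgeR p under 0.05 and DESeq2's Wald test called 3. Ackr3, an atypical receptor that takes up CXCL12 without G protein signalling, was the riser in both. It went from 2.49 ± 1.37 CPM (SD, n = 3) in WT to 17.9 ± 0.977 in DH-LMP2A and 18.1 ± 5.62 in kFRA (log2 fold changes 2.83 and 2.85, adjusted p = 0.00134 and 0.000975). Cx3cr1, the fractalkine receptor, fell in both, from 9.42 ± 6.22 to 1.31 ± 0.152 and 3.07 ± 0.469 CPM (adjusted p = 0.00316 and 0.0263). Cxcr2, a receptor of neutrophils, fell from 54.5 ± 31.0 to 1.34 ± 0.218 CPM in kFRA (adjusted p = 0.00481). The follicle and T zone receptors Cxcr5 and Ccr7 fell in kFRA against WT, from 18.6 ± 7.31 to 2.92 ± 1.69 CPM and from 14.5 ± 5.08 to 2.66 ± 1.07 CPM (adjusted p = 0.0213 and 0.0337). The median log2 fold change of the 15 was -0.98 for kFRA against WT and -0.28 for DH-LMP2A against WT.

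No ligand gene passed the test. Of the 7 tested, edgeR called 0 in any comparison. Against WT, 2 had an unadjusted p under 0.05 in kFRA and 1 in DH-LMP2A, with 0 between the mutants, and DESeq2's Wald test called 1, 1 and 0. Cxcl12 averaged 1.09 ± 0.943 CPM in WT against 1.53 ± 0.0442 in DH-LMP2A and 2.32 ± 1.03 in kFRA. The CXCR3 ligands Cxcl9 and Cxcl10 averaged 17.8 and 7.49 CPM in WT, 7.50 and 1.46 in DH-LMP2A, and 6.05 and 2.08 in kFRA. The adjusted p nearest to the threshold was that of Cxcl10 in DH-LMP2A against WT, at 0.0706. The median log2 fold change of the 7 was -0.42 for kFRA and -0.11 for DH-LMP2A against WT. Ccl25, the ligand of CCR9, was between 1.07 and 1.65 CPM on average in all genotypes.

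Of 12 sphingosine-1-phosphate receptors and enzymes, 4 fell in kFRA against WT, 2 fell and 1 rose in DH-LMP2A against WT, and none passed between kFRA and DH-LMP2A (2 with an unadjusted edgeR p under 0.05, 1 by DESeq2's Wald test). S1pr3, a receptor found mainly outside lymphocytes, went from 6.31 ± 1.35 CPM in WT to 1.80 ± 0.760 in kFRA (log2 fold change -1.79, adjusted p = 0.0101). Sgpl1, the lyase that degrades sphingosine-1-phosphate, fell from 150 ± 15.1 to 98.1 ± 10.9 CPM in kFRA and 97.5 ± 14.7 in DH-LMP2A (adjusted p = 0.0229 and 0.0261). The phosphatase gene Sgpp2 fell from 4.65 ± 2.34 CPM to 0.310 ± 0.10 in DH-LMP2A (adjusted p = 0.00345) and to 0.116 ± 0.150 in kFRA (adjusted p = 0.00138), a mean below the floor. The list's median log2 fold change was -0.37 for kFRA and -0.41 for DH-LMP2A against WT. S1pr4 and Cd69, whose protein pulls S1PR1 off the cell surface, did not pass in any comparison. Cd69 averaged 19.8 ± 7.47 CPM in WT against 13.5 ± 5.49 in DH-LMP2A and 14.8 ± 1.53 in kFRA.

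For the other integrin subunits the balance of falls and rises in DH-LMP2A depended on the scaling. Of 17 tested (median log2 fold change -0.71 for kFRA and -0.73 for DH-LMP2A against WT), 6 fell and 2 rose in kFRA against WT, 3 fell and 1 rose in DH-LMP2A against WT, and 1 fell and 1 rose in kFRA against DH-LMP2A. With library size alone, 0 were lower and 4 higher in DH-LMP2A against WT, and 4 were lower and 2 higher in kFRA against WT. Itga6, the laminin receptor chain, fell from 8.42 ± 1.73 CPM in WT to 3.78 ± 1.15 in DH-LMP2A and 2.43 ± 0.435 in kFRA (adjusted p = 0.022 and 0.00286). The leukocyte beta 2 chain, Itgb2, fell from 473 ± 8.30 to 289 ± 44.0 CPM in kFRA (adjusted p = 0.0184). Its lymphocyte partner Itgal, the alpha chain of LFA-1, stood at 343 ± 59.0 CPM in kFRA and 609 ± 59.4 in DH-LMP2A (adjusted p = 0.0758). Itgam, the myeloid partner, averaged 44.2 ± 18.4 CPM in WT against 14.5 ± 8.31 in DH-LMP2A and 2.75 ± 1.26 in kFRA. It was lower in kFRA than in either other genotype (adjusted p = 0.00179 and 0.0401), and its exons overlap those of Gm45700 and Gm49368 on the same strand. Itga2b, the platelet and megakaryocyte alpha chain, rose from 3.10 ± 0.548 to 6.81 ± 0.883 CPM in kFRA (adjusted p = 0.00726).

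Among 16 genes that switch integrins on or off (medians -0.47 for kFRA and -0.15 for DH-LMP2A against WT), 4 fell and 1 rose in kFRA against WT, 1 fell and 1 rose in DH-LMP2A against WT, and 1 fell in kFRA against DH-LMP2A. Cytip, a restrainer of integrin adhesion, was highest in DH-LMP2A at 359 ± 17.7 CPM, against 228 ± 7.86 in WT and 209 ± 11.9 in kFRA (adjusted p = 0.00861 and 0.00616). Skap2, an adaptor of inside-out signalling, fell from 69.4 ± 4.61 CPM to 45.3 ± 4.59 in DH-LMP2A and 47.2 ± 3.42 in kFRA. Rassf5, the RAP1 effector, fell to 48.9 ± 5.19 CPM in kFRA from 74.3 ± 7.84 in WT (adjusted p = 0.0124).

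Adhesion genes included the most calls between kFRA and DH-LMP2A of these lists, at 3 in the fit over the 9 libraries. That count was 0 without kFRA replicate 1, and 1 without DH-LMP2A replicate 1 or 3 or kFRA replicate 3. It was also 1 with a covariate for other cell types' markers, and stayed at 3 without DH-LMP2A replicate 2 or kFRA replicate 2. Of 15 tested (medians -0.47 and -0.25 for kFRA and DH-LMP2A against WT), 6 fell and 1 rose in kFRA against WT, 1 fell and 2 rose in DH-LMP2A against WT, and 3 fell in kFRA against DH-LMP2A. Alcam, a cell adhesion molecule, fell from 72.0 ± 5.34 in WT and 51.6 ± 7.38 in DH-LMP2A to 29.7 ± 5.73 CPM in kFRA (adjusted p = 0.00103 and 0.0258). Cd44, the hyaluronan receptor, fell from 350 ± 40.9 to 189 ± 60.6 CPM in kFRA against WT (adjusted p = 0.0266). Cd24a rose from 150 ± 24.1 CPM to 525 ± 91.3 in DH-LMP2A and 457 ± 76.0 in kFRA (adjusted p = 0.000574 and 0.00082); it is expressed by B cell precursors and erythroid cells among others.

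Downstream of the receptors, 4 of 22 signalling genes (medians -0.37 and -0.32 for kFRA and DH-LMP2A against WT) fell and 1 rose in kFRA against WT, 1 rose in DH-LMP2A against WT, and 1 fell in kFRA against DH-LMP2A. That 1 was Pik3cg, the catalytic subunit of the PI3 kinase driven by G protein-coupled receptors. It stood at 105 ± 25.7 CPM in kFRA against 295 ± 70.0 in DH-LMP2A and 257 ± 36.6 in WT (adjusted p = 0.00644 and 0.00634). Grk6, a receptor kinase, fell in kFRA from 119 ± 16.01 to 74.5 ± 9.28 CPM (adjusted p = 0.0188), and Rgs10, a brake on G proteins, rose in both mutants from 35.8 ± 3.19 to 49.5 ± 4.57 and 48.0 ± 1.54 CPM. Of 12 KLF and FOXO genes (medians -0.27 and 0.10), 2 fell in kFRA against WT, 2 rose in DH-LMP2A against WT and 1 fell in kFRA against DH-LMP2A. Klf12 rose from 0.635 ± 0.219 CPM in WT to 3.23 ± 0.590 in DH-LMP2A (adjusted p = 0.0218), and Klf6 fell from 52.9 ± 5.66 to 34.5 ± 1.66 CPM in kFRA (adjusted p = 0.0302). Foxo3 was called in all 3 comparisons, at 67.7 ± 8.62 CPM in WT against 92.5 ± 6.01 in DH-LMP2A and 49.0 ± 2.29 in kFRA. S1pr1, Alcam, Itgam, Pik3cg and Foxo3 were thus each called lower in kFRA than in DH-LMP2A and lower than in WT.

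**Figure D4:**
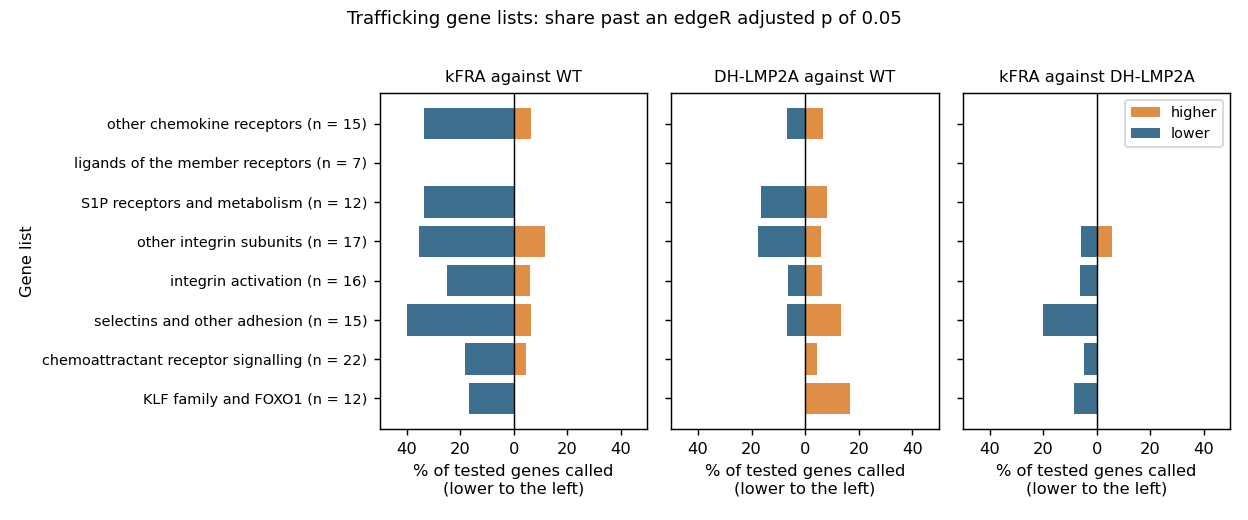
Share of tested genes called lower (to the left) and higher (to the right) by edgeR in 8 lists of trafficking genes (y axis, with the number tested), for the 3 comparisons. The bars of kFRA against WT reach left in 7 of the 8 lists, and no ligand was called. Of all tested genes, 11.1% were lower and 6.68% higher in that comparison.

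Markers of other cell types differed between the genotypes as well. Summed B cell markers were at 333 to 657 CPM in WT, 415 to 590 in DH-LMP2A and 232 to 291 in kFRA, and 5 of the 8 fell in kFRA against WT (median log2 fold change -1.83), and 2 of the 8 fell against DH-LMP2A; DH-LMP2A against WT had 2 lower and 2 higher. Naive B cells also express S1pr1, Klf2, Itgb7, Cxcr5 and Ccr7, and the part of B cells in the values of these genes was not tested. T cell markers summed to 74.9 to 121 CPM in DH-LMP2A, against 45.3 to 98.2 in WT and 44.1 to 63.2 in kFRA. Of these, 1 of 8 was higher in each mutant against WT and 1 of 8 lower between the mutants. The largest means in the list were those of Cd4 and, for the mutants, Cd8b1. Cd8b1 averaged 38.7 CPM in DH-LMP2A and 13.3 in kFRA against 0.733 in WT. Cd4 was highest in WT, at 44.8 CPM against 27.9 in DH-LMP2A and 22.4 in kFRA. Cd3e, Cd3d, Cd3g and Cd8a averaged between 1.26 and 4.53 CPM in every genotype. NK cell markers, of cells that carry Cxcr3, lay at 14.2 to 34.2 CPM in WT, 4.08 to 19.5 in DH-LMP2A and 1.81 to 4.58 in kFRA, with 2 of 5 tested lower in each mutant against WT and 2 higher in DH-LMP2A. The WT sum was mostly Prf1 and Eomes, at 16.6 and 5.09 CPM on average against 2.15 and 1.08 in DH-LMP2A. The other NK cell markers went the other way in DH-LMP2A. Ncr1, Klrd1, Klrb1c and Gzma averaged 0.140, 0.191, 0.339 and 1.49 CPM in WT and 1.58, 1.12, 0.766 and 3.06 in DH-LMP2A. DH-LMP2A replicate 3 had the highest B, T and NK cell sums of its genotype, and also the highest plasma cell and erythroid sums, at 47671 and 12125 CPM. Its myeloid, granulocyte and cycling plasmablast sums were the lowest of the genotype. The same library had the genotype's highest Cxcr4, S1pr1, Itgb7, Ccr9, Ccr10 and Cxcr3. The part of NK and T cells in the values of Cxcr3 was not tested.

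Granulocyte markers, of cells that carry Cxcr2 and Itgam, ranged from 271 to 857 CPM in WT, 20.9 to 275 in DH-LMP2A and 6.84 to 25.6 in kFRA, with 3 of 7 tested lower in kFRA against WT, 2 lower against DH-LMP2A, and Elane at the floor in WT. Myeloid markers summed to 2684 to 4648 CPM in WT, 782 to 2251 in DH-LMP2A and 1609 to 2339 in kFRA, with 2 of 8 lower in each mutant. Erythroid markers ran the other way, with 34.5 to 306 CPM in WT, 2289 to 12125 in DH-LMP2A and 1031 to 2458 in kFRA, and 3 of 7 rose in each mutant. Plasma cell markers were at 19253 to 24486 CPM in WT, 34651 to 47671 in DH-LMP2A and 20981 to 33106 in kFRA, with 4 of 10 higher and 1 lower in each mutant against WT. Cycling plasmablast markers were at 382 to 502 CPM in WT, 501 to 749 in DH-LMP2A and 218 to 657 in kFRA; the highest kFRA sum was that of replicate 2, which also had the highest Itga4, Itgb1, Ccr9, Ccr10 and S1pr1 of its genotype. By edgeR 0 of the 8 were called in any comparison, with an unadjusted p under 0.05 in 1 for kFRA against DH-LMP2A and in 0 otherwise, and 0 by DESeq2's Wald test. Without kFRA replicate 2, 4 of the 8 were lower in kFRA against WT.

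**Figure D5:**
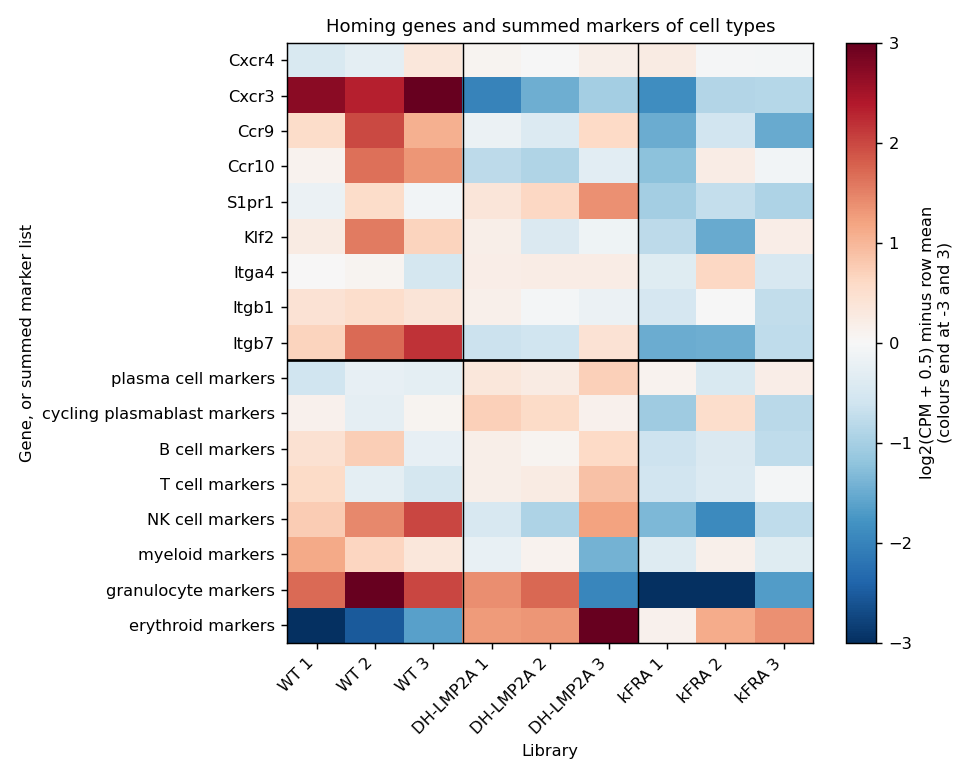
Level of each of the 9 genes and of summed marker lists (rows) in each library (columns), as log2(CPM + 0.5) minus the row mean, on a colour scale that ends at -3 and 3. Cxcr3, Itgb7 and myeloid markers are highest in the WT columns, and erythroid markers are lowest there. NK cell and granulocyte markers overlap between WT and DH-LMP2A. Granulocyte markers sum to 275 CPM in DH-LMP2A replicate 2 against 271 in WT replicate 1. NK cell markers sum to 19.5 CPM in DH-LMP2A replicate 3 against 14.2 in WT replicate 1.

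The covariate for other cell types' markers was the first principal component of B cell, T cell, myeloid and erythroid markers. Its lists were not scaled to equal spread, and NK cell and granulocyte markers were not in it. With this covariate, 5 of the 9 homing genes were called lower in kFRA against WT. Cxcr3, Ccr9, Itgb7 and S1pr1 were called as before, and Ccr10 in place of Itgb1. For DH-LMP2A against WT the same 3 (Cxcr3, Itgb7 and Ccr10) were called, and S1pr1 between kFRA and DH-LMP2A. The calls of the other trafficking lists, leaving out the ligands, were fewer under that covariate. Of 109 genes in 7 lists, 6 rose and 31 fell in kFRA against WT without the covariate, and 3 were higher and 6 lower with it. In DH-LMP2A against WT, 9 rose and 8 fell without it and edgeR called 0 with it, where 16 had an unadjusted p under 0.05; DESeq2 was not run with the covariate.

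The calls of DH-LMP2A against WT given above for Ackr3, Cx3cr1, Cd24a, Sgpp2, Sgpl1, Itga6, Cytip, Skap2, Rgs10, Foxo3 and Klf12 thus did not pass with the covariate. Ackr3 kept a log2 fold change of 2.79 (adjusted p = 0.0910), and Cd24a 1.73 (adjusted p = 0.0613). In kFRA against WT, Ackr3, Cd24a, Cxcr5, Itga6, Alcam and Sgpp2 still passed with it. Between kFRA and DH-LMP2A, Cytip, Pik3cg and Foxo3 passed, while Alcam and Itgam had adjusted p-values of 0.0597 and 0.0593. With library size alone, Cx3cr1, Sgpl1, Itgb2, Skap2, Rassf5, Cd44, Grk6, Foxo3 and Klf6 no longer passed in kFRA against WT, nor did Sgpl1, Itga6 and Skap2 in DH-LMP2A against WT or Alcam and Itgam between the mutants. Under that scaling the 109 genes gave 9 higher and 14 lower in kFRA against WT, and 15 higher and 2 lower in DH-LMP2A against WT. Without kFRA replicate 2, the number lower in kFRA against WT went from 4 to 7 for integrin activation and 4 to 8 for signalling. Without kFRA replicate 1 or WT replicate 2, these numbers fell to 0 for integrin activation and 1 for signalling. Over the 7 lists, 31 genes were lower in kFRA against WT with all libraries in. Leaving out kFRA replicate 2 gave 42. Each other omission gave fewer than 31, from 11 (WT replicate 2) to 29 (WT replicate 3). Over all genes the calls in kFRA against WT went from 2523 to 727 under the marker covariate. Each list entered the covariate as its mean log2 CPM, whose overlap between genotypes is not reported here. As summed CPM, the myeloid and erythroid lists did not overlap between WT and the mutants. A genotype effect and a shift in cell mixture cannot be told apart with this covariate.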

How the data were processed

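The deposited table holds whole-number read counts per gene for 9 libraries, 3 each of WT, DH-LMP2A and kFRA, each from 1 mouse. Per the labels' protocols, the libraries were poly(A) selected and strand-specific and were read as pairs. Per the submitters' processing notes, the authors' tools were STAR 2.4.0a, featureCounts, Subread 1.5.0-p3 and DESeq2, with the builds mm10 and GRCm38. The strand setting, the annotation and the handling of multiply mapped reads are not given in the sources used here, and GENCODE M21 exons served for overlaps.

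Counts were analysed with edgeR 4.0.16 in R 4.3.3. Genes were filtered with filterByExpr, scaled with TMM and fitted with 1 coefficient per genotype, and tested with quasi-likelihood F tests at an adjusted p of 0.05. SEs are the log2 fold change divided by the root of F. The script was tested on simulated data. DESeq2 1.42.0, other scalings and filters, a replicate block, marker and Xist covariates, and omission of each library were the alternatives; their application to the pathway lists was added after the data were seen. Replicate pairs differed by more than sampling noise (chi-square per degree of freedom from 17.3 to 164), so that each library counted as 1 replicate. Total counts set the precision of each value, and the floor covers counting error only.

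The 9 genes and all lists were chosen with earlier results of these data known. From each list, the 3 genes with the smallest p over the comparisons were described, together with Cxcl12, Itgal, Itgb2, Cd44, Cxcr5, Ccr7, S1pr4 and Cd69; some genes that this rule or the comparison of patterns names are not reported here. S1pr1 and Ccr10 had no entry among the promoters used.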

Additional observations from a re-analysis of the deposited data

How the results depend on the processing

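No result reversed while called. The count of the 9 genes called for kFRA against DH-LMP2A, 1, became 2 with the replicate number as a block (S1pr1 and Itgb7), and ranged from 0 to 3 when 1 library was left out. For kFRA against WT, 5, it ranged from 3 to 7, and for DH-LMP2A against WT, 3, from 1 to 3. The block moved neither of these by over 1.5 times. The replicate numbers do not pair the mice: same-numbered libraries correlated at -0.22 to 0.21 over 9 pairs, and 2 of 9 libraries correlated best with their own number. All 3 differences in the ratio of Itgb7 to Itgb1 kept their direction, with ranges over left-out libraries of -2.34 to -1.56 for kFRA against WT, -1.76 to -0.96 for DH-LMP2A against WT and -1.01 to -0.17 for kFRA against DH-LMP2A; paired sign flips gave an exact p of 0.25, the smallest they allow. Klf2 in kFRA against WT passed with library size alone, no filter, the Xist covariate and DESeq2's Wald test, Ccr10 with no filter, the block, the marker covariate and the Wald test, and Itgb1 in DH-LMP2A against WT with only the 6 libraries compared. Over all genes, DESeq2 called 1330 for kFRA against DH-LMP2A in place of 713, and DH-LMP2A against WT went from 1756 to 291 with the marker covariate and to 1095 with a mean of at least 5 CPM, which leaves fewer genes tested and leaves out Ccr9. The cause of the other changes was not tested. Ccr9 in kFRA rests on 4 to 20 counts per library, and Sgpp2 there on 0 to 6.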
